A study of Mus musculus with 72 samples.

Results

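Epididymal white adipose tissue (eWAT) of adult mice that ate a control diet was compared between the sons of calorie-restricted dams (CR20-CTRL, 6 mice) and the sons of freely fed dams (FED-CTRL, 6 mice). These 12 libraries, out of 72 in the series, are all those whose labels give eWAT and the control diet, so no measured value entered the choice. The other libraries hold the liver and pituitary of the same mice, and the same 3 tissues of 12 other mice that ate a high-fat diet (HFD, 45% fat). The comparison asks which adipose transcripts differ in adult sons after maternal undernutrition when the sons themselves were not given a fat-rich diet.

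The mice were of an FVB strain with normal sight and carried no further allele that the labels name. CR20 dams received 20% less food than FED dams from embryonic day 15 until the pups were weaned on postnatal day 21, and FED dams ate freely throughout. From 8 weeks of age all 12 sons ate a diet with 10% fat, for 10 weeks by the description of these males, while the labels, written for all mice, name 10 or 16 weeks. Each library came from 1 mouse with its own animal number. The pups of a dam were divided between the control diet and the HFD, but the labels do not say which mice were littermates, so the number of litters behind each group of 6 is not known.

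eWAT is the visceral fat pad that lies against the epididymis in males. Its adipocytes store triglyceride, release fatty acids when other tissues need them and secrete hormones such as leptin and adiponectin, while macrophages, lymphocytes, vessels, mesothelium and stromal progenitors make up much of the rest of the pad. RNA from the whole pad therefore mixes these cells, and fewer cells of a type and less RNA per cell cannot be told apart here.

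The libraries of FED-CTRL held 18896702 to 22364963 counts (median 20785892), and those of CR20-CTRL 11589675 to 21401722 (median 19871177.5). The pad was fat in every mouse by its markers: all 20 adipocyte genes were measured, and adiponectin (Adipoq) alone gave 1178 to 4974 CPM, that is, counts scaled to a fixed library size with TMM factors.

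CR20-CTRL mice 4 and 5 stood apart from the other 10 mice, and the results below are given with all mice and, for the counts and for the genes that passed a threshold, without these 2. The first principal component of log2 CPM held 44.0% of the variance and placed mouse 5 farthest out and mouse 4 next. The median rank correlation of a library with the other 11 was 0.927 for mouse 5, 0.977 for mouse 4 and 0.982 to 0.989 for the rest. Mouse 5 was also the library with the lowest count, 11589675.

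Mice 4 and 5 had high levels of genes known from ciliated epithelium. The summed level of 33 epithelial genes was 1400 CPM in mouse 5 and 276 CPM in mouse 4, against 24.7 to 50.0 CPM in the other 4 CR20-CTRL mice and 32.3 to 48.1 CPM in FED-CTRL. The summed level of 109 genes of the motile cilium was 2292 CPM in mouse 5 and 945 CPM in mouse 4, against 680 to 830 CPM in the other CR20-CTRL mice and 642 to 735 CPM in FED-CTRL. Conversely, the 20 adipocyte genes summed to 35100 CPM in mouse 5, against 66605 to 100141 CPM in the other 5 CR20-CTRL mice and 72223 to 85403 CPM in FED-CTRL. The cilium and epithelium lists were drawn up after the values of these 2 mice had been seen. In the plot of summed levels, mouse 5 is the highest of 12 for both lists and the lowest of 12 for adipocyte genes.

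**Figure D1:**
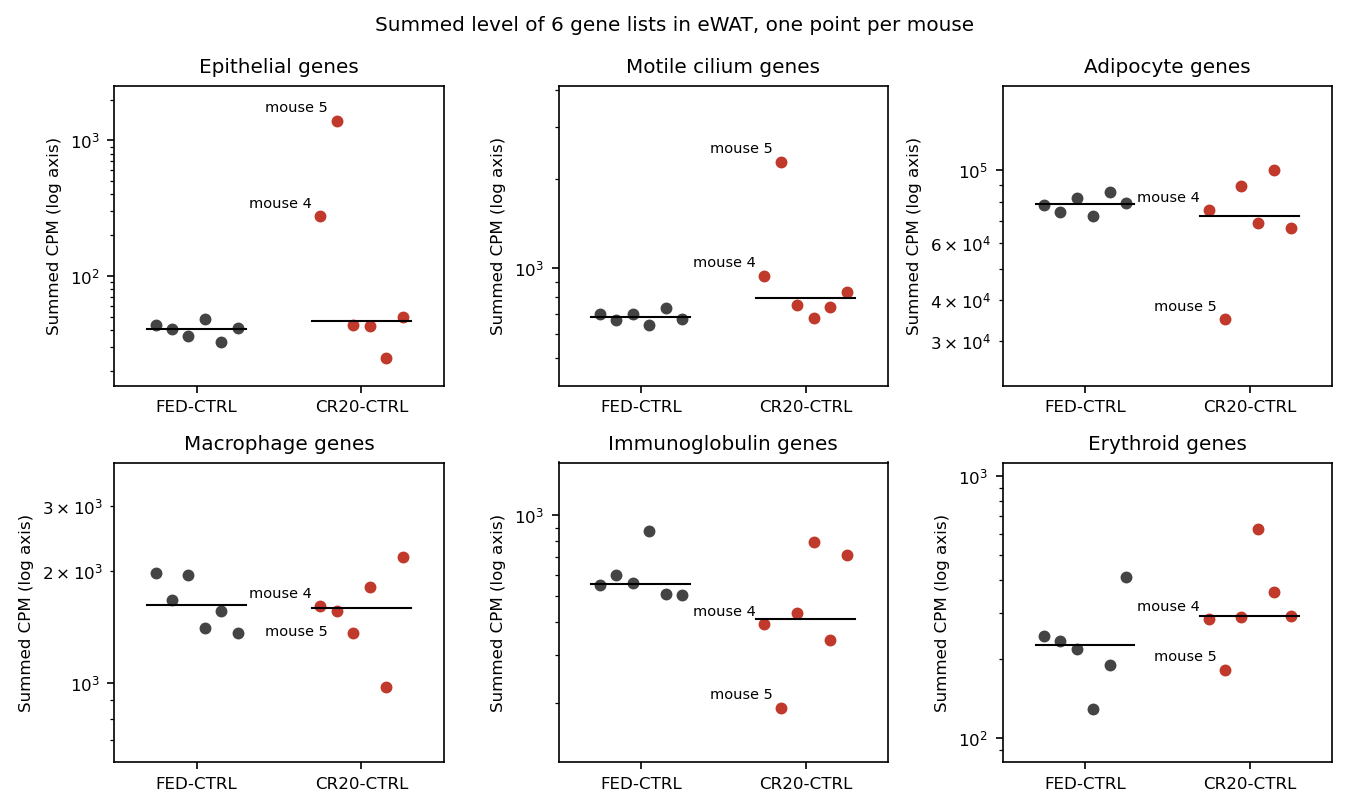
Summed CPM of 6 gene lists (log axis) in the eWAT of each FED-CTRL mouse (grey) and CR20-CTRL mouse (red), with a line at the group median. CR20-CTRL mouse 5 gave 1400 CPM and mouse 4 gave 276 CPM for epithelial genes, and no other mouse of either group exceeded 50.0 CPM.

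Genes of the epididymis were examined in the same mice, since the fat pad touches that organ. Of 21 epididymis and testis genes, none passed the filter on low counts. Adam7, a gene of the epididymal epithelium, reached 133 CPM in mouse 4 and 51.9 CPM in mouse 5, had 0 counts in the other 10 mice and made up nearly all of the summed level of the list, which was 134 CPM and 52.8 CPM in these 2 mice. The defining epididymal genes Crisp1, Lcn5 and Gpx5 had 0 counts in all 12 mice. Pax8, a transcription factor of ductal epithelia, had 0 counts in all FED-CTRL mice, 8.93 CPM in mouse 4, 42.9 CPM in mouse 5 and at most 0.0544 CPM in the other CR20-CTRL mice. E-cadherin (Cdh1), which joins epithelial cells, was at 42.0 CPM in mouse 5 and 4.12 CPM in mouse 4, and at most 0.381 CPM in each of the other 10.

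No gene differed between the groups after adjustment. Across 15964 tested genes, edgeR's quasi-likelihood test called 0 genes (0%) at an adjusted p-value below 0.055 with an absolute log2FC of at least 0.58, and the smallest adjusted p-value was 0.235. At an unadjusted p-value below 0.05 it gave 1180 genes, more than the 0.05 of 15964 that chance alone gives. Of these, 1001 were higher and 179 lower in CR20-CTRL. limma voom called 0 genes with and without quality weights, and DESeq2 called 150, of which 149 were higher. Without mice 4 and 5, DESeq2 called 1 gene, Klhl29, which was lower in CR20-CTRL.

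For a description of single genes, a relaxed threshold was used, an unadjusted p-value below 0.05 and an absolute log2FC of at least 0.58. It was passed by 738 genes that were higher in CR20-CTRL (4.62% of those tested) and by 44 that were lower (0.276%). The higher genes followed mouse 5: it had the highest level of the group for 693 of the 738 (93.9%), and mouse 4 came second for 466. Without mouse 5 the counts were 167 (1.04%) and 59 (0.367%), and without mice 4 and 5 they were 79 (0.486%) and 70 (0.431%) of 16239 tested genes. Of the 738 higher genes, 38 still passed without both mice, and of the 44 lower genes, 23. Without these mice edgeR called 0 genes after adjustment (smallest adjusted p-value 0.644) and 434 had an unadjusted p-value below 0.05, 221 of them higher. These 434 are less than 0.05 of the 16239 tested genes, the share that chance alone gives. The genes described singly from this fit are to be read with that limit. Over the 738 higher genes the median log2FC was 1.36 with all mice and 0.28 without the 2, and over the 44 lower genes it was -0.77 and -0.76. The plot of each gene with and without the 2 mice shows most of the higher genes in a band below the diagonal, while the lower genes lie close to it.

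**Figure D2:**
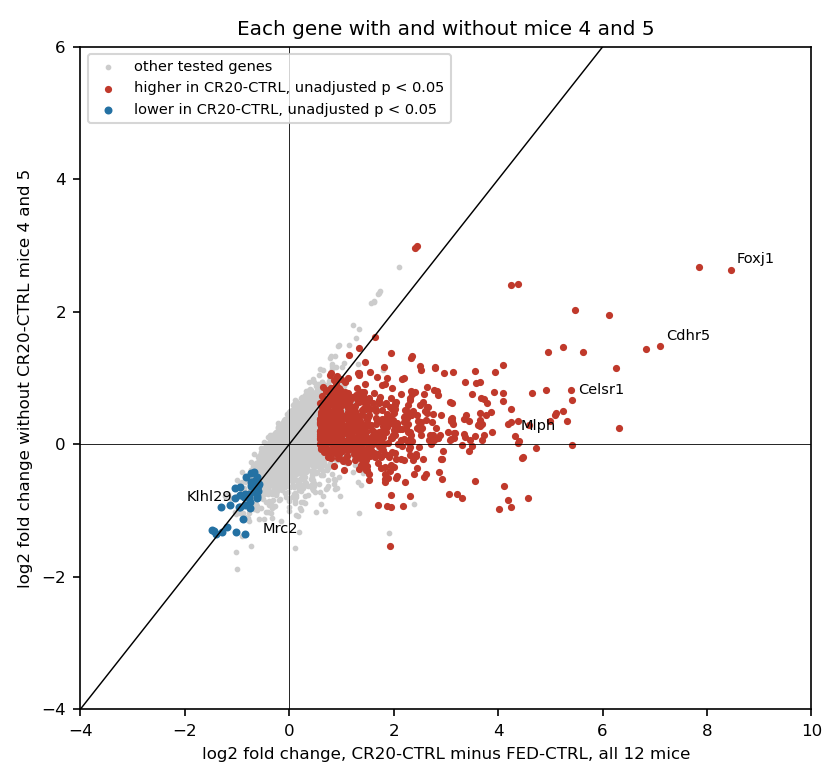
Log2FC of CR20-CTRL minus FED-CTRL for each tested gene with all 12 mice (horizontal axis) and without CR20-CTRL mice 4 and 5 (vertical axis), with the line of equal values. Red and blue points passed the relaxed threshold with all mice; Foxj1 moved from 8.45 to 2.64 and Mlph from 4.32 to 0.12 when the 2 mice were left out, and Mrc2 from -0.76 to -0.96.

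The 10 higher genes with the smallest p-values were Fam167a, Foxj1, Acot1, Celsr1, Ank3, Cdhr5, Arhgef16, Arnt2, Mlph and Ccl28, and each was highest in mouse 5 and next in mouse 4. Foxj1, the transcription factor that switches on genes of motile cilia, had a lowest, median and highest level of 0, 0.0697 and 0.224 CPM in FED-CTRL. In CR20-CTRL the 6 mice had 0.10, 0.198, 0.745, 1.20, 19.9 and 166 CPM, so that 2 mice were far above all others while 2 of the remaining 4 lay within the FED-CTRL range. The log2FC was 8.45 (SE 1.91, edgeR unadjusted p = 0.000187, adjusted p = 0.235). Without mice 4 and 5 it was 2.64 (SE 1.49, unadjusted p = 0.0903).

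Genes of cell polarity and epithelial surfaces had the same shape. Celsr1, a cadherin of planar cell polarity, was at 0.499 to 1.19 CPM (median 0.694) in FED-CTRL, at 0.351 to 1.85 CPM in 4 CR20-CTRL mice, and at 16.6 and 179 CPM in mice 4 and 5 (log2FC 5.41, SE 1.27). Cdhr5, a cadherin of the microvillus brush border, was at 0 to 0.199 CPM (median 0.0993) in FED-CTRL and 0.0991 to 0.598 CPM in 4 CR20-CTRL mice, but at 12.4 and 73.3 CPM in mice 4 and 5 (log2FC 7.10, SE 1.72). Epcam, an adhesion protein of most epithelia, was at 0.859 to 3.41 CPM in FED-CTRL and 1.68 to 5.85 CPM in the 4 mice, and at 17.9 and 59.1 CPM in mice 4 and 5 (log2FC 2.66, SE 0.69). With these 2 mice left out the log2FC was 0.67 (SE 0.78) for Celsr1, 1.48 (SE 1.44) for Cdhr5 and 0.56 (SE 0.48) for Epcam, and none of the 3 passed the relaxed threshold.

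The remaining genes of this set have varied roles. Mlph, the adaptor that links pigment and secretory granules to myosin, had a log2FC of 4.32 with all mice and 0.12 without mice 4 and 5. Ccl28, a chemokine secreted by mucosal epithelia, had 4.24 and 0.53. Ank3, the ankyrin that anchors membrane proteins to the cytoskeleton, had 4.64 and 0.78, and Acot1, which cleaves fatty acyl-CoA in the cytosol, had 3.92 and 0.79. Arnt2, a partner of basic helix-loop-helix transcription factors, had 3.73 and 0.69, Fam167a 3.51 and 0.76, and Arhgef16, a guanine nucleotide exchange factor, 2.86 and 0.74. None of the 10 genes passed the relaxed threshold without the 2 mice.

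Of the 109 cilium genes, 68 passed the filter, and 45 of these were higher at the relaxed threshold, against 4.62% of all tested genes. Their median log2FC was 1.27, against 0.02 for all genes. They included axonemal dynein genes such as Dnai2 (log2FC 4.09), genes of the dynein regulatory complex such as Drc1 (3.65), the radial spoke gene Rsph1 (2.91) and the central apparatus gene Hydin (4.25). Without mouse 5 the count was 17 of 68 with a median of 0.53. Leaving out mice 4 and 5 gave 2 of 68, the regulatory factor Rfx2 (log2FC 0.63) and Tppp3 (0.70), with a median of 0.07. Of the 15 tested epithelial genes, 13 were higher with all mice (median 2.33) and 0 without mice 4 and 5 (median 0.14). Both lists were drawn up after the values of mice 4 and 5 had been seen. Their counts with these mice were thus bound to be high and are a description, not a test against all genes.

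Among the cilium genes, Odad1 separated the groups with all mice. Odad1, which docks the outer dynein arms on the axoneme (chromosome 7, 45573027 to 45602149, plus strand, GRCm39), had a lowest, median and highest level of 3.65, 4.08 and 4.90 CPM in FED-CTRL and of 5.26, 6.20 and 28 CPM in CR20-CTRL. The groups did not overlap, and mouse 5 was far above the rest. The log2FC was 1.21 (SE 0.32, edgeR adjusted p = 0.235). The gene was singled out after its values were seen, so no further test is given. The log2FC without mice 4 and 5 was 0.50 (SE 0.18) and the groups still did not overlap. In the HFD mice the log2FC was 0.64 (SE 0.32, adjusted p = 0.191), with overlap between the groups.

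Genes that define adipocytes did not pass either threshold. Of 20 adipocyte genes, 0 were higher and 0 lower, and their median log2FC was -0.13 with all mice and 0.02 without mice 4 and 5. Adipoq had a lowest, median and highest level of 3197, 3789 and 4605 CPM in FED-CTRL and of 1178, 3584 and 4974 CPM in CR20-CTRL, where mouse 5 gave the lowest value and the next was 3093 CPM (log2FC -0.13, SE 0.30). Perilipin 1 (Plin1), which coats the lipid droplet, was at 1974 to 2359 CPM in FED-CTRL and 1179 to 2779 CPM in CR20-CTRL, with mouse 5 again lowest (log2FC -0.11, SE 0.21). Adipsin (Cfd), a complement protease secreted by adipocytes, was at 2872 to 5433 CPM in FED-CTRL and 2163 to 8351 CPM in CR20-CTRL (log2FC 0.38, SE 0.42).

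Leptin (Lep), the hormone that reports fat stores to the brain, was at 2142, 2435 and 3157 CPM (lowest, median, highest) in FED-CTRL and 1312, 1985 and 2851 CPM in CR20-CTRL. Mouse 5 had the lowest value of the 12 and mouse 4 the highest of its group, and the other 4 CR20-CTRL mice, at 1705 to 2132 CPM, lay just below the FED-CTRL range. The log2FC was -0.34 (SE 0.24, edgeR adjusted p = 0.889, exact two-sided permutation p = 0.0563, where 6 mice against 6 allow no value under 0.00216) with all mice and -0.38 (SE 0.25, unadjusted p = 0.142) without mice 4 and 5. Sfrp5, a secreted inhibitor of Wnt ligands, was at 308 to 434 CPM in FED-CTRL and 225 to 381 CPM in CR20-CTRL. Mest, an imprinted gene whose level follows the expansion of fat mass, was at 383 to 836 CPM in FED-CTRL and 410 to 634 CPM in CR20-CTRL (log2FC -0.31, SE 0.24).

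The genes of lipid handling gave few differences, and those that passed the relaxed threshold with all mice did not pass it without mice 4 and 5. Of 22 genes of lipolysis and the lipid droplet, 1 was higher, the adrenergic receptor Adra2a (log2FC 1.04, and 0.62 without the 2 mice). Of 28 lipogenic genes, 1 was higher, the fatty acid desaturase Fads2 (1.03, and 0.17). Of 22 genes of fatty acid oxidation, 2 were higher, among them Acot1 (3.92, and 0.79). Of 16 genes of fatty acid uptake, 28 of insulin and glucose handling, 24 of cholesterol synthesis and 13 thermogenic genes, 0 passed in either direction, with or without these mice.

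Lipoprotein lipase (Lpl), which frees fatty acids from circulating lipoproteins, did not pass the threshold either. It was at 10440 to 12270 CPM (median 11450) in FED-CTRL and at 5113 to 10720 CPM (median 9998) in CR20-CTRL, where mouse 5 had the lowest level. The log2FC was -0.29 (SE 0.16, edgeR adjusted p = 0.745, exact permutation p = 0.00433) with all mice and -0.20 (SE 0.13) without mice 4 and 5, when the groups did not overlap.

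The Wnt and BMP pathways, which hold back adipogenesis or direct it, had 6 of 31 genes higher and 0 lower, against 4.62% and 0.276% of all tested genes, the shares beside which each count of a list is to be read. The 6 were Bmp7 (log2FC 1.92), Sfrp1 (1.57), Fst (0.97), Wnt6 (2.53), Inhba (2.03) and Rspo3 (1.28), and 0 of 31 passed without mice 4 and 5. Follistatin (Fst), which binds activins, was at 1.89 to 4.21 CPM in FED-CTRL and 1.79 to 9.36 CPM in CR20-CTRL, with mouse 5 highest and mouse 4 next at 6.30 CPM. Adipokines had 1 of 17 higher, lipocalin 2 (Lcn2, log2FC 3.45, and -0.11 without the 2 mice). The growth hormone and IGF list had 2 of 18 higher, Igfbp7 (0.63, and 0.34) and Igf1r (0.79, and 0.09). The hormone receptors had 3 of 27 higher, Igf1r, Adra2a and Esr1 (0.63, and 0.00), and the adipogenic transcription factors 1 of 21, Gata2 (0.79, and 0.24).

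The mitochondrial lists held no gene past the relaxed threshold. Of 82 nuclear genes of the respiratory chain, 0 passed, and 61 had a log2FC above 0 with all mice (median 0.03) and 77 without mice 4 and 5 (median 0.11). Of 10 genes of the mitochondrial genome, 0 passed, and their median was 0.11 with all mice and 0.22 without the 2. Of 82 cytosolic ribosomal protein genes, 0 passed (median 0.04, and 0.05). The medians of all tested genes were 0.02 and 0.00 in these fits, and 8987 of 15964 and 8335 of 16239 had a log2FC above 0. Genes of such a list move together in a library, so their number does not count independent differences.

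Macrophage genes overlapped between the groups. Of 12 macrophage genes, 15 genes of lipid-associated macrophages and 14 genes of tissue-resident macrophages, 0 passed in either direction, with or without mice 4 and 5. Cd68, a lysosomal glycoprotein of macrophages, was at 68.7 to 105 CPM (median 86.6) in FED-CTRL and 47.9 to 120 CPM (median 109) in CR20-CTRL (log2FC 0.08, SE 0.35). Trem2, a lipid receptor of macrophages in fat, was at 24.2 to 44.4 CPM in FED-CTRL, while CR20-CTRL mice 33 and 48 had 16.2 and 11.6 CPM and the other 4 had 44.3 to 61.0 CPM. Mmp12, the macrophage elastase, divided the same mice, with 10.4 and 14.8 CPM in mice 33 and 48, 92.4 to 214 CPM in the other 4 and 62.5 to 141 CPM in FED-CTRL. Mice 33 and 48 were thus below all FED-CTRL mice for both genes, while the other 4 overlapped with or exceeded them, and log2FC was 0.20 (SE 0.50) for Trem2 and 0.16 (SE 0.74) for Mmp12.

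A list of 8 eWAT genes of earlier interest, among them Cd68, Mmp12 and Peg3, held 0 genes past the relaxed threshold, with or without mice 4 and 5. Peg3, an imprinted zinc finger gene expressed from the paternal allele, was at 82.8, 159 and 224 CPM (lowest, median, highest) in FED-CTRL and 65.2, 120 and 251 CPM in CR20-CTRL (log2FC -0.35, SE 0.32, edgeR adjusted p = 0.943). Of the 30 imprinted genes that passed the filter, 2 were higher, the amino acid transporter Slc38a4 (4.01) and Dlk1 (1.84), an inhibitor of adipocyte differentiation. Neither passed without mice 4 and 5, with -0.98 for Slc38a4 and 0.90 for Dlk1.

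Lymphocyte genes supplied some of the lower genes. Of 16 tested T and NK cell genes, 2 were lower and 0 higher, against 0.276% lower among all genes, and without mice 4 and 5 it was 1 of 17. Cd28, the co-stimulatory receptor of T cells, was at 0.997, 1.26 and 1.90 CPM in FED-CTRL and 0.532, 0.701 and 0.941 CPM in CR20-CTRL, and the groups did not overlap (log2FC -0.84, SE 0.31, edgeR adjusted p = 0.458, exact permutation p = 0.00216). It was -0.76 (SE 0.37) without mice 4 and 5. Cd5, a T cell surface protein, gave -0.83 with all mice and -0.50 (SE 0.37) without the 2. Cd6, a related receptor that is in no list, was at 0.647 to 1.95 CPM in FED-CTRL and 0.363 to 0.904 CPM in CR20-CTRL, with mice 4 and 5 lowest (log2FC -1.04, SE 0.36, and -0.81 without them). The other T cell genes measured at this level did not pass, among them Cd3d (-0.01), Cd3e (-0.39) and Cd3g (-0.62). These genes are expressed at a few CPM at most, and 3 counts equal 0.134 to 0.259 CPM in these libraries.

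Ighm, the constant region of the immunoglobulin mu chain, was the most abundant of the 44 lower genes. It was at 402, 435 and 728 CPM in FED-CTRL and 172, 315 and 405 CPM in CR20-CTRL, so that 1 CR20-CTRL mouse reached the FED-CTRL range. The log2FC was -0.70 (SE 0.22, edgeR adjusted p = 0.299, exact permutation p = 0.00433) with all mice and -0.64 (SE 0.23) without mice 4 and 5. The other B cell genes did not pass. With all mice Cd79a, a part of the B cell receptor, had -0.29 (SE 0.76) and Ighd, the delta constant region, -0.64 (SE 0.31). Of 13 tested B cell genes, 1 had a log2FC above 0 with all mice (median -0.28), where 8987 of all 15964 did. Without mice 4 and 5, 10 of 13 did (median 0.10), where 8335 of all 16239 did. Most of the list then went the other way from Ighm. In the HFD mice Ighm was at 311 to 510 CPM in FED-HFD and 276 to 572 CPM in CR20-HFD (log2FC -0.21, SE 0.22).

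A pair of transcripts of antibody-secreting cells split the CR20-CTRL group instead. Igkc, the kappa light chain constant region, was at 3.67 and 3.85 CPM in mice 4 and 5 and at 64.0 to 147 CPM in the other 4, with 17.3 to 65.8 CPM in FED-CTRL. Jchain, which joins the units of secreted IgM and IgA, was at 1.04 and 0.435 CPM in mice 4 and 5, 13.8 to 41.6 CPM in the other 4 and 4.68 to 15.3 CPM in FED-CTRL. With all mice the groups overlapped for both genes. Since both genes were picked for this split, no test is given. Immunoglobulin variable segments are near-identical in sequence, so reads can be split among them, and their single values are not described.

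Ccl21a, a chemokine that guides lymphocytes and dendritic cells into lymph nodes, was present in the same 2 mice. It was at 42.7 and 42.9 CPM in mice 4 and 5, at 0 to 1.39 CPM in the other 4 CR20-CTRL mice and at 0 to 1.90 CPM in FED-CTRL (log2FC 5.39, SE 1.78, edgeR adjusted p = 0.356, exact permutation p = 0.152). Near-identical Ccl21 genes exist in the mouse, so the assignment of its reads is uncertain. Among the HFD mice it was at 18.97 and 74.2 CPM in CR20-HFD mice 6 and 7 and at most 0.757 CPM in the other 10. In the liver and pituitary of the same mice it did not exceed 2.94 CPM in any library.

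Stromal and vascular lists held few genes past the relaxed threshold. Of 20 stromal progenitor genes 2 were higher (Bmp7 and Dlk1), and of 43 collagen and matrix genes 2 were higher, the collagen Col6a5 (log2FC 0.87, and 0.51 without mice 4 and 5) and the matrix protease Mmp14 (0.63, and 0.40). Of 11 pericyte and smooth muscle genes 3 were higher, Cnn1 (3.65), Myh11 (1.44) and Tagln (0.70), all contractile genes, against 4.62% of all tested genes, and 0 of 11 passed without the 2 mice, against 0.486%. Those lists held 2 other genes that passed only then, elastin (Eln, 0.76) in the matrix list and the hyaluronan synthase Has1 (1.21) in the progenitor list. Smooth muscle myosin (Myh11) was at 20.0 to 37.5 CPM in FED-CTRL, 280 CPM in mouse 5, 68.5 CPM in mouse 47 and 14.6 to 24.5 CPM in the other 4 CR20-CTRL mice. Of 19 endothelial genes 0 passed, with or without the 2 mice.

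Mesothelial genes, from the sheet of cells that covers the pad, varied widely among CR20-CTRL mice. Mesothelin (Msln) was at 103 to 212 CPM in FED-CTRL, at 24.2 and 57.5 CPM in mice 5 and 4, at 82.0 and 108 CPM in mice 47 and 48, and at 321 and 448 CPM in mice 33 and 49. Of 13 mesothelial genes 1 was higher, the keratin Krt8 (log2FC 1.38, and 0.79 without mice 4 and 5). All 13 had a log2FC above 0 without the 2 mice (median 0.45), where 8335 of all 16239 tested genes did, and 0 passed the relaxed threshold.

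Hemoglobin genes, whose transcripts come with blood, were among the higher genes once mice 4 and 5 were left out. Of 4 tested erythroid genes, 0 passed with all mice (median log2FC 0.48) and 3 without the 2 (median 0.69). Hbb-bs was at 70.1 to 228 CPM (median 128) in FED-CTRL and 89.2 to 312 CPM (median 174) in CR20-CTRL, and the groups overlapped (log2FC 0.46, SE 0.28). The log2FC without mice 4 and 5 was 0.68 (SE 0.28, edgeR unadjusted p = 0.0243) for Hbb-bs and 0.77 (SE 0.33) for Hba-a1. Paralogous hemoglobin genes share sequence, so the values of a single copy are uncertain.

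The further lists gave 0 genes in either direction for the 26 interferon-stimulated, 10 MHC class II, 27 immediate early, 21 unfolded protein response, 20 antioxidant, 30 cell cycle, 18 DNA methylation and chromatin and 4 skeletal muscle genes tested with all mice. When mice 4 and 5 were left out, these lists held 1, the histone deacetylase Hdac9 (log2FC -0.61). In 9 neutrophil and mast cell genes 1 was higher (Hdc, 1.20), in 28 chemokine genes 2 (Ccl21a and Cx3cl1, 1.46), in 17 complement genes 1 (C7, 1.28), in 16 glucocorticoid-responsive genes 2 (Lcn2 and Errfi1, 0.92), in 19 clock genes 1 (Npas2, 2.36) and in 5 Schwann cell genes 1 (Ngfr, 1.54). None of these 8 named genes passed without mice 4 and 5. Of 3 glial genes tested, 2 were higher, Ptgds (4.38) and Gfap (3.61), the latter at 19.3 CPM in mouse 4 and at most 0.598 CPM in the other 11 mice, and Ptgds still passed without mice 4 and 5 (2.42). In all, members of the lists other than those for cilium, epithelium, glia and immunoglobulins gave 33 genes past the relaxed threshold (30 higher, 3 lower) with all mice and 8 (5 higher, 3 lower) without mice 4 and 5. The plot of list medians shows the cilium, epithelium and glia lists as the 3 highest with all mice, and each of them nearer to the median of all genes without the 2. The immunoglobulin list moved the other way. Its median was 0.83 with all mice (2 of 26 tested genes higher, 1 lower) and 1.34 without the 2, the highest of the lists. Then 7 of 41 were higher and 2 lower, against 0.486% and 0.431% of all genes. This list, too, was picked with values in view, and its members share sequence.

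**Figure D3:**
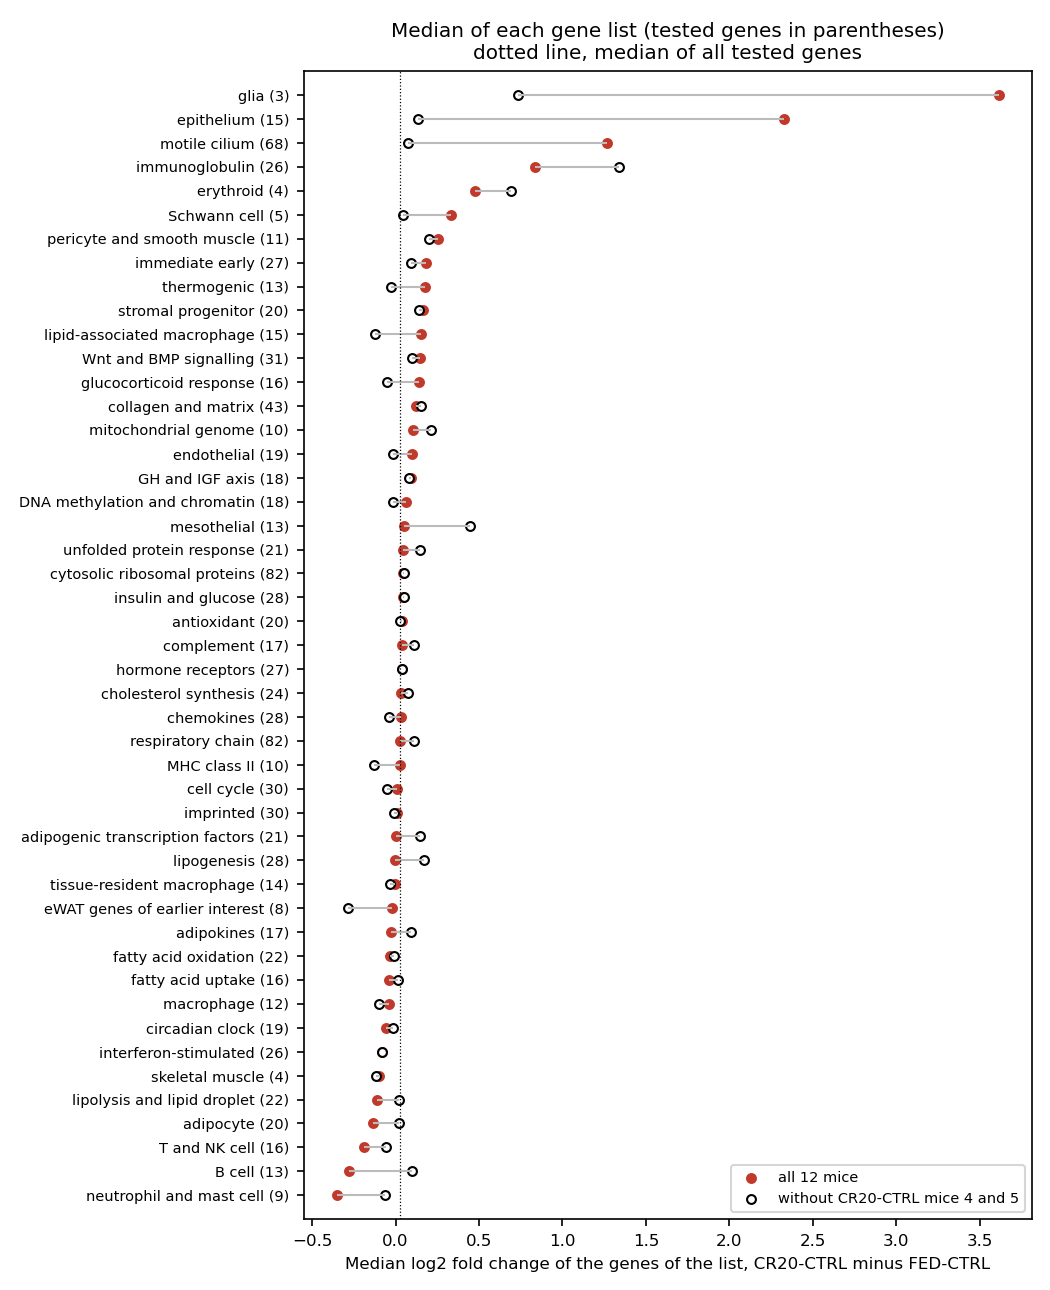
Median log2FC of CR20-CTRL minus FED-CTRL over the tested genes of each list, with all 12 mice (filled) and without CR20-CTRL mice 4 and 5 (open), with the number of tested genes in parentheses. The epithelium list moved from 2.33 to 0.14 and the motile cilium list from 1.27 to 0.07, while the dotted line marks the median of all tested genes, 0.02.

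The lower genes depended less on mice 4 and 5. Mrc2, the endocytic collagen receptor of fibroblasts and other stromal cells (chromosome 11, 105182903 to 105242285, plus strand, GRCm39), was at 88.6, 102, 114, 117, 119 and 142 CPM in FED-CTRL and at 33.6, 43.0, 75.1, 81.8, 83.3 and 86.2 CPM in CR20-CTRL. No CR20-CTRL mouse reached the lowest FED-CTRL mouse. The log2FC was -0.76 (SE 0.24, edgeR unadjusted p = 0.00449, adjusted p = 0.312, exact permutation p = 0.00216) with all mice and -0.96 (SE 0.27) without mice 4 and 5. The permutation p-value is that of any gene without overlap, and Mrc2 was named by its p-value in these data. Scaled by total counts alone, without TMM factors, the groups overlapped, since mouse 5 then had 103 CPM and the lowest FED-CTRL mouse 86.9 CPM.

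A pair of genes that lie close together on the X chromosome were lower as well. Ct55 (chromosome X, 52718510 to 52740532, plus strand), known as a testis-expressed gene, was at 0.961, 1.36 and 1.74 CPM (lowest, median, highest) in FED-CTRL and 0.290, 0.554 and 0.893 CPM in CR20-CTRL. Xlr (chromosome X, 52779085 to 52799712, minus strand), of a lymphocyte-regulated gene family, was at 2.13, 2.63 and 4.49 CPM in FED-CTRL and 1.09, 1.76 and 2.06 CPM in CR20-CTRL. Neither gene overlapped between the groups under any of 3 scalings. The log2FC was -1.20 (SE 0.35, edgeR adjusted p = 0.267) for Ct55 and -0.74 (SE 0.23, adjusted p = 0.310) for Xlr. Both gave an exact permutation p = 0.00216, which only restates that the groups did not overlap. Without mice 4 and 5 the log2FC was -1.25 (SE 0.39) for Ct55 and -0.63 (SE 0.26) for Xlr. Xlr belongs to a family of near-identical copies, so its reads may be shared among them.

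Alpk2, an alpha-kinase, was at 3.54, 5.13 and 7.02 CPM in FED-CTRL and 0.532, 1.70 and 4.26 CPM in CR20-CTRL, where only mouse 47 reached the FED-CTRL range (log2FC -1.41, SE 0.44, edgeR adjusted p = 0.307, exact permutation p = 0.00649). The value without mice 4 and 5 was -1.35 (SE 0.51). Spatc1, a sperm centriole gene, gave -0.94 (SE 0.32), with levels of 0.109 to 1.11 CPM. The zinc finger genes Gm14412 (-0.96, SE 0.33) and Gm14406 (-1.44, SE 0.50) come from a cluster of near-identical genes on chromosome 2, and their counts are uncertain for that reason.

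Klhl29, a kelch-family gene of a kind that often serves as an adaptor of ubiquitin ligases (chromosome 12, 5127144 to 5425698, minus strand), had the smallest p-value of all lower genes. It was at 9.71, 12.0 and 15.6 CPM in FED-CTRL and at 6.34, 7.38 and 12.0 CPM in CR20-CTRL, where mouse 5 had the highest level and the next was 8.94 CPM. The log2FC was -0.62 (SE 0.15, edgeR unadjusted p = 0.000506, adjusted p = 0.235) with all mice. Leaving out mice 4 and 5 gave -0.79 (SE 0.15, edgeR unadjusted p = 3.97e-05, adjusted p = 0.644), the groups did not overlap, and this is the gene that DESeq2 called. In the HFD mice its log2FC was 0.13 (SE 0.15), with 6.33 to 8.81 CPM in FED-HFD and 6.35 to 9.79 CPM in CR20-HFD, so all HFD mice of FED dams lay below the FED-CTRL range. The difference between the effects on the diets was 0.75 (edgeR adjusted p = 0.0693), above the threshold of 0.055.

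Among the genes that were higher at the relaxed threshold both with and without mice 4 and 5 were Scand1, Ppp1r13l and Adamts15. Scand1, a SCAN-domain transcriptional regulator, was at 2.69, 4.86 and 7.23 CPM in FED-CTRL and 4.21, 9.49 and 13.0 CPM in CR20-CTRL. Here mice 4 and 5 were the lowest of the group, and the other 4 were all above FED-CTRL (log2FC 0.78, SE 0.28, and 1.05, SE 0.26, without them). Ppp1r13l, an inhibitor of p53 and NF-kappaB, was at 7.57 to 10.5 CPM in FED-CTRL, 5.41 CPM in mouse 4 and 10.7 to 20.2 CPM in the other 5 (log2FC 0.62, SE 0.21, and 0.73, SE 0.16). Adamts15, a metalloprotease that cleaves versican and aggrecan, was at 8.69 to 12.9 CPM in FED-CTRL and 13.0 to 61.7 CPM in CR20-CTRL, with mouse 5 highest (log2FC 1.19, SE 0.30, and 0.71, SE 0.23). None of these 3 genes passed after adjustment in either fit. For Adamts15 the groups overlapped when scaled by total counts alone.

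Counted over all genes, the 2 groups did not overlap for 13 genes that were higher in CR20-CTRL (0.0814% of those tested) and 26 that were lower (0.163%). With DESeq2 size factors these counts were 13 and 27, and with total counts alone 13 and 19. When mice 4 and 5 were left out they were 66 (0.413%) and 78 (0.489%). The plot of 8 genes by mouse shows the values of single mice in these groups and in the HFD mice.

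**Figure D4:**
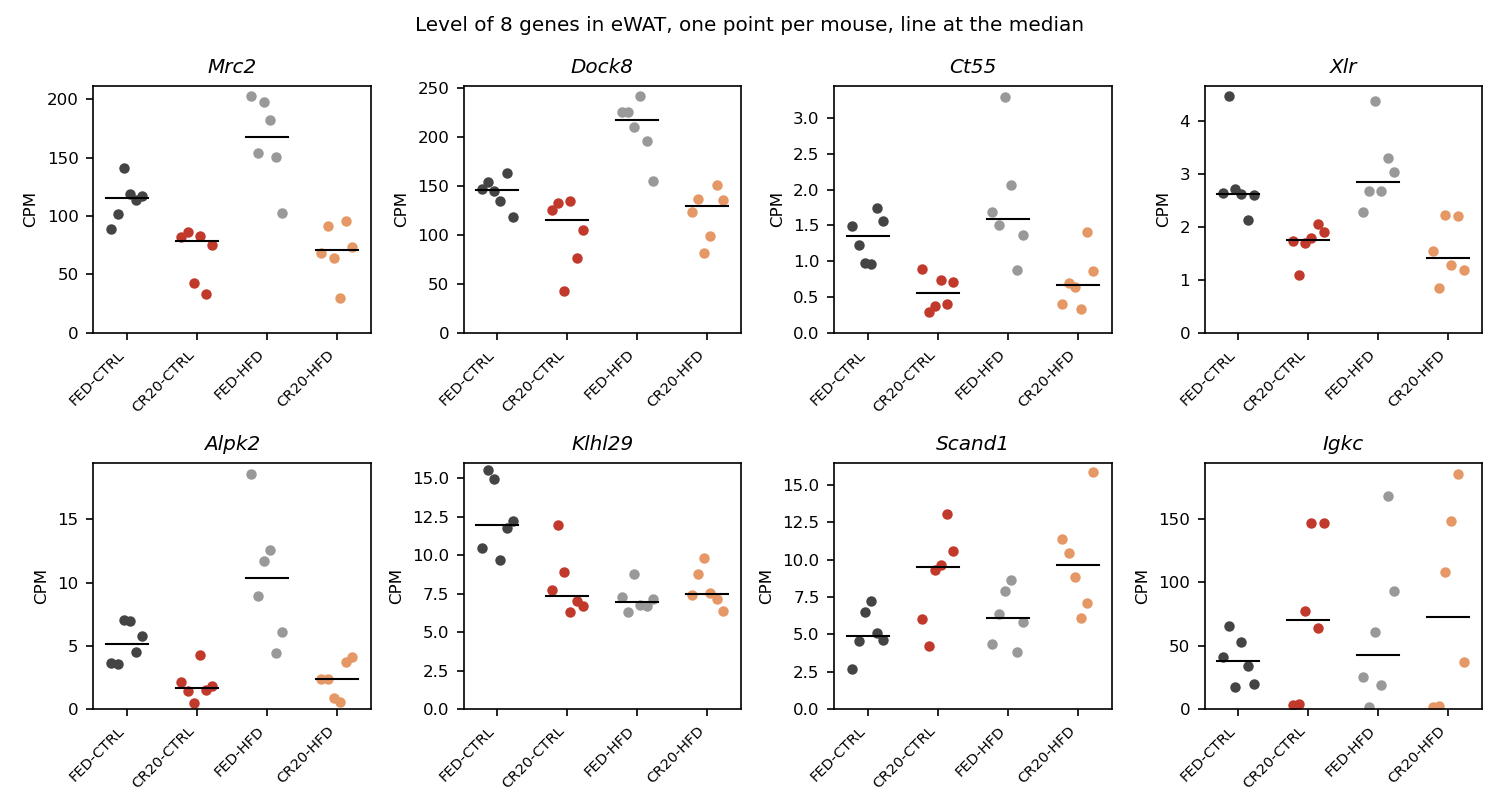
CPM of 8 genes in the eWAT of each mouse of the 4 groups of 6 mice, with a line at the median. Mrc2 was at 88.6 to 142 CPM in FED-CTRL and 33.6 to 86.2 CPM in CR20-CTRL, and at 103 to 203 CPM in FED-HFD and 30.0 to 95.8 CPM in CR20-HFD, whereas Klhl29 was at 9.71 to 15.6 CPM in FED-CTRL and 6.34 to 12.0 CPM in CR20-CTRL, and at 6.33 to 8.81 CPM in FED-HFD and 6.35 to 9.79 CPM in CR20-HFD.

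CR20-CTRL mice also varied more from each other than FED-CTRL mice. The median SD of log2 CPM over tested genes was 0.335 in CR20-CTRL and 0.180 in FED-CTRL, and the SD was larger in CR20-CTRL for 13448 of 15964 genes (84.2%). With mice 4 and 5 left out the median SD of CR20-CTRL was 0.247, while that of any 4 FED-CTRL mice lay between 0.155 and 0.183, and the SD was larger in CR20-CTRL for 69.9% of genes. In the HFD mice it was 0.316 in FED-HFD and 0.236 in CR20-HFD, but without FED-HFD mouse 23 the median SD of FED-HFD was 0.212. This mouse stood apart from its group, with 22414 CPM for the adipocyte genes against 54129 to 71547 CPM in the other 5 FED-HFD mice, and 10344 CPM for the macrophage genes against 2086 to 4015 CPM. This spread was not tested, since genes are not independent replicates.

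The HFD mice, which share no sample with the mice above, were used to see how the same genes stood in other sons of restricted dams. Since pups of a dam were divided between the diets, mice on the 2 diets may be littermates, and an effect of litter and one of maternal diet cannot be told apart. Of the 738 higher genes, 539 (73.0%) had a log2FC above 0 in CR20-HFD against FED-HFD, where 52.8% of all genes did. Of the 44 lower genes, 32 (72.7%) had a log2FC below 0, where 47.2% of all genes did. Without CR20-CTRL mice 4 and 5 the counts were 60 of 79 higher genes (75.9%) and 55 of 70 lower genes (78.6%), where 51.5% and 48.5% of all genes had those signs. With all mice, 75 of the 738 higher genes had the same sign with an unadjusted p-value below 0.05 in the HFD mice, and 34 had the opposite sign. The share with the same sign was below the 13.2% of all genes that were higher at that p-value. Of the 44 lower genes, 14 had the same sign at that p-value, where 16.6% of all genes were lower, and 0 had the opposite sign. In the fit without mice 4 and 5 it was 27 of 79 higher genes (15.6% of all genes) and 24 of 70 lower genes (18.4%), and 4 and 1 had the opposite sign. Without FED-HFD mouse 23 it was 60 of 787 higher genes, again below the share of all genes (10.3%), with 40 of the opposite sign. Among lower genes it was then 18 of 60 (12.7% of all genes), with 1 of the opposite sign. Without all 3 mice it was 28 of 96 higher genes (13.5%) and 34 of 77 lower genes (14.8%), with 5 and 1 of the opposite sign. The HFD comparison itself had 755 genes higher (4.73%) and 1452 lower (9.10%) at the relaxed threshold.

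Mrc2 was lower on both diets, with 103 to 203 CPM in FED-HFD and 30.0 to 95.8 CPM in CR20-HFD (log2FC -1.23, SE 0.24, edgeR adjusted p = 0.00189), and the groups did not overlap on either. Xlr was at 2.28 to 4.38 CPM in FED-HFD and 0.851 to 2.23 CPM in CR20-HFD, again without overlap (log2FC -0.97, SE 0.24, adjusted p = 0.00773). Ct55 gave -1.30 (SE 0.35, adjusted p = 0.0141) and Alpk2 -2.14 (SE 0.45, adjusted p = 0.00272) in the HFD mice. Without FED-HFD mouse 23 the log2FC was -1.25 for Mrc2, -0.94 for Xlr, -1.44 for Ct55 and -2.29 for Alpk2, with edgeR adjusted p-values of 0.00197 to 0.0202. Of the 26 lower genes without overlap on the control diet, 3 were also lower without overlap on the HFD: Mrc2, Xlr and the phosphatase gene Dusp3 (log2FC -0.25 and -0.39), where 4.17% of all genes were lower without overlap. Scaled by total counts alone, the control-diet groups overlapped for Mrc2 and Dusp3 but not for Xlr. Of the 13 higher genes without overlap, 0 were higher and 1 was lower without overlap on the HFD, where 2.5% of all genes were higher without overlap.

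Further genes had the same sign on both diets. Dock8, a regulator of immune cell migration, was at 118 to 163 CPM in FED-CTRL and 42.8 to 135 CPM in CR20-CTRL (log2FC -0.48, SE 0.20, and -0.69, SE 0.22, without mice 4 and 5), and its log2FC on the HFD was -0.79 (SE 0.20, edgeR adjusted p = 0.0112). Gabrr2, a subunit of an ionotropic GABA receptor, gave -0.86 (SE 0.38) on the control diet with all mice and -1.36 (SE 0.41) without mice 4 and 5. On the HFD it gave -1.07 (SE 0.37, edgeR adjusted p = 0.0541). Mettl26, a putative methyltransferase, gave 0.60 (SE 0.17) with all mice, 0.45 without mice 4 and 5 and 0.67 (SE 0.17, adjusted p = 0.00889) on the HFD. Thiosulfate sulfurtransferase (Tst), a mitochondrial enzyme, gave 0.63 (SE 0.20), 0.36 and 0.83 (SE 0.20, adjusted p = 0.00729). The plot of both diets shows most points of the 149 genes at the lower left and the upper right.

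**Figure D5:**
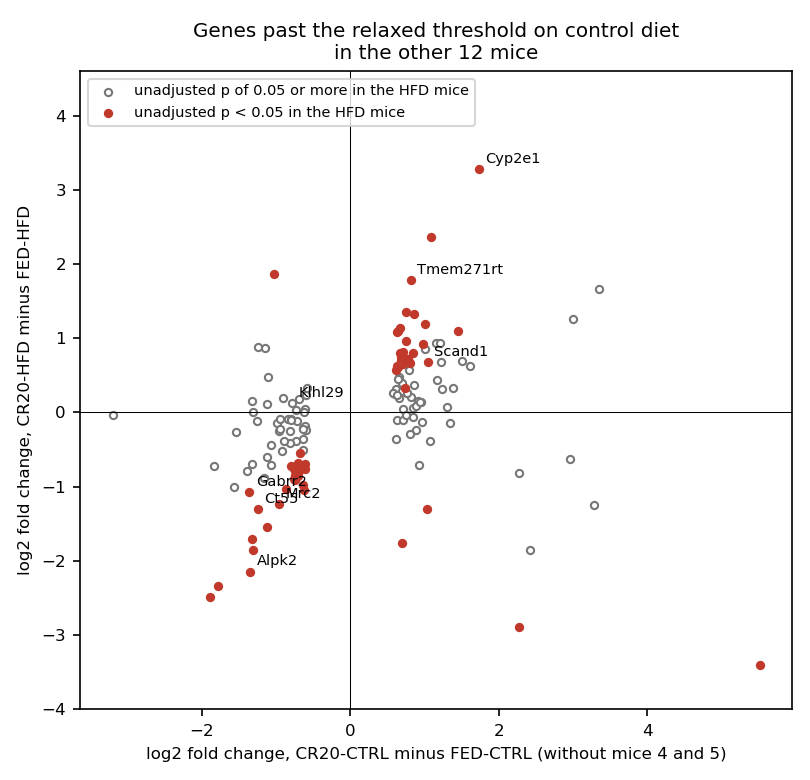
Log2FC of the 149 genes past the relaxed threshold on the control diet without mice 4 and 5 (horizontal axis) against their log2FC in the 12 HFD mice (vertical axis), with filled points for an unadjusted p-value below 0.05 in the HFD mice. Of 79 higher genes, 60 lie above 0 on the vertical axis, and of 70 lower genes, 55 lie below 0. Of all tested genes, 51.5% were above 0 and 48.5% below 0 in the HFD mice.

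For 3 macrophage genes the effect differed between the diets with all mice. Cd68 had a log2FC of 0.08 (SE 0.35) on the control diet and -2.25 (SE 0.36) on the HFD, and the difference between the effects was -2.33 (edgeR adjusted p = 0.0322). For Trem2 they were 0.20 (SE 0.50) and -2.63 (SE 0.53), with a difference of -2.84 (adjusted p = 0.0421), and for Mmp12 0.16 (SE 0.74) and -4.10 (SE 0.84), with a difference of -4.26 (adjusted p = 0.0423). Over all genes, 387 (2.42%) passed the adjusted threshold for a difference between the diets. FED-HFD mouse 23, with the macrophage sum of 10344 CPM given above, takes part in each of these values. Without it 287 genes passed, and the difference was -1.78 for Cd68 (edgeR adjusted p = 0.0223), -2.10 for Trem2 (adjusted p = 0.0737) and -2.86 for Mmp12 (adjusted p = 0.101). The log2FC on the HFD was then -1.71 (SE 0.27, adjusted p = 0.000452) for Cd68, -1.91 (SE 0.43, adjusted p = 0.00673) for Trem2 and -2.72 (SE 0.65, adjusted p = 0.00978) for Mmp12. Without CR20-CTRL mice 4 and 5 the differences were -2.18, -2.63 and -3.77, with adjusted p-values of 0.128, 0.135 and 0.144.

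The same genes were then examined in the liver and pituitary of these 12 mice. Of the 738 higher genes, 397 were tested in the liver and 195 (49.1%) had a log2FC above 0 there, where 56.4% of all liver genes did. In the pituitary 312 of 665 (46.9%) had a log2FC above 0, where 52.1% of all genes did. Of the lower genes, 6 of 8 in the liver and 12 of 22 in the pituitary had a log2FC below 0, where 43.6% and 47.9% of all genes did. For the 79 genes that were higher in eWAT without mice 4 and 5, the counts were 24 of 34 in the liver (70.6%) and 24 of 51 in the pituitary (47.1%), and for the 70 lower genes 10 of 22 (45.5%) and 21 of 39 (53.8%). The shares of all genes beside these were the same as above. Mrc2 was at 18.9 to 26.5 CPM in the pituitary of CR20-CTRL and 21.6 to 32.4 CPM in that of FED-CTRL, scaled by total counts.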

How the data were processed

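The data are the counts that the authors deposited, whole numbers per Ensembl gene without normalization. Per the labels and the study's methods, RNA was sequenced from stranded libraries, for which the sources name both a total RNA kit and an mRNA kit, and reads were trimmed with Trimmomatic, aligned with STAR to GRCm39 and counted with Subread; the strand setting is not given in the sources used here. Names and positions of 54749 of 55416 genes came from GENCODE M39 on GRCm39, and 667 had none. Groups came from the labels.

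The 24 eWAT libraries were fitted together in edgeR 4.0.16 (R 4.3.3) with filterByExpr, TMM factors, glmQLFit and glmQLFTest, and p-values were adjusted by the Benjamini-Hochberg method. The call rule (adjusted p-value below 0.055, absolute log2FC of at least 0.58) follows the study's methods. Log2 CPM used a prior count of 2. SE is the absolute log2FC divided by the square root of F. Exact two-sided permutation tests ran over all divisions of the mice. For a gene named by its p-value in these data, the result is a description. Liver and pituitary were fitted alone in the same way. The steps were tested on simulated data.

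Named are the 10 higher and 10 lower genes with the smallest p-values, up to 4 genes of each list by p-value with the first 3 of marker lists, the genes the study names, and up to 5 in each direction with the same sign and an unadjusted p-value below 0.05 in the HFD mice. The other genes described, among them Dnai2, Drc1, Rsph1, Hydin, Rfx2, Tppp3, Adam7, Pax8, Cdh1, Epcam, Odad1, Scand1, Ppp1r13l, Adamts15, Dock8, Gabrr2, Dusp3, Igkc and Trem2, were picked with their values in view, as were the lists for motile cilium, epithelium, glia and immunoglobulins. The members and lists were chosen with earlier results of these data known.

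Alternatives were limma 3.58.1 voom with or without quality weights, DESeq2 1.42.0, DESeq2 size factors, other filters, only the 12 libraries compared, robust empirical Bayes, a covariate for the range of animal numbers, and fits that left out 1 mouse at a time. Fits without both mice 4 and 5, without FED-HFD mouse 23 and with library totals were added after seeing the data. No sequences are shown, since no result turns on one. Some results that were obtained are not reported here.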

Additional observations from a re-analysis of the deposited data

Results flagged for a closer look

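A value was singled out where the highest or lowest mouse of a group of 6 lay so far from the next that this gap exceeded Dixon's critical share of the group's range, which chance does in about 1 in 20 groups. Of 204 values examined, 22 met this, and 15 of them belonged to CR20-CTRL mouse 5. Shares were taken on log2 CPM for genes, and without logs for list sums, total counts and correlations. The levels in parentheses are plain CPM. The genes examined were genes named here, some of them, such as Odad1, picked with their values in view. The cilium and epithelium lists were drawn up after mice 4 and 5 had been seen. The counts of 22 and 15 therefore cannot be set beside 1 in 20. In mouse 5 the gap took a share of 0.811 for Odad1 (28 CPM), 0.759 for Cnn1 (20.8 CPM), 0.670 for Adipoq (1178 CPM), 0.664 for Sfrp5 (225 CPM) and 0.699 for Xlr (1.09 CPM). It took 0.840 for Lpl (5113 CPM), 0.745 for Esr1 (199 CPM), 0.755 for Igf1r (99.6 CPM), 0.645 for Igfbp7 (376 CPM), 0.669 for Inhba (13.4 CPM) and 0.6253 for Hdc (44.5 CPM). It took 0.736 for the total count, 0.876 for the median rank correlation with the other libraries, 0.835 for the summed cilium genes and 0.817 for the summed epithelial genes. In CR20-CTRL mouse 4 the gap took a share of 0.767 for Gfap (19.3 CPM) and 0.640 for Cd3d (0.397 CPM). In FED-CTRL it took 0.868 for Ccl21a and 0.672 for Xlr in mouse 15 (1.90 and 4.49 CPM). In FED-CTRL mouse 24 it took 0.635 for Ighm (728 CPM), 0.646 for Igfbp7 (189 CPM) and 0.63 for Cd3g (1.21 CPM).

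For 5 of the 96 named genes examined, the effect of the dam's restriction differed between the diets by edgeR's test of the difference. The adjusted p-values were 0.0322 for Cd68, 0.0423 for Mmp12, 0.0421 for Trem2, 0.0422 for Ptgds and 0.0466 for Npas2. Over all 15964 tested genes, 387 (2.42%) passed this threshold with a difference of at least 0.58, so these 5 are only those among the named genes. Trem2 was picked with its values in view. Without CR20-CTRL mice 4 and 5 none of the 5 passed (adjusted p-values of 0.128 to 0.203). Without FED-HFD mouse 23, Cd68 (0.0223) and Ptgds (0.0508) passed and Trem2 (0.0737), Mmp12 (0.101) and Npas2 (0.105) did not. The log2FC was 0.08, 0.16 and 0.20 on the control diet and -2.25, -4.10 and -2.63 on the HFD for Cd68, Mmp12 and Trem2, 4.38 and -1.85 for Ptgds, and 2.36 and -1.35 for Npas2.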

How the results depend on the processing

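The limits are those of 6 mice a group with unknown litters and of 2 libraries that stood apart, and genes below about 1 CPM rest on few counts. No paired analysis was possible because the groups compared share no animal number. The count of 0 called genes held under limma voom with and without quality weights, DESeq2 size factors, both other filters, the covariate, robust fitting, the 12 libraries alone, library totals, log2FC minima of 1 and of none, and each mouse left out (0 to 0), but DESeq2's Wald test called 150, and 1 without mice 4 and 5; the cause was not tested. The 782 genes at the relaxed threshold (738 higher, 44 lower) became 257 with quality weights (163 and 94), 261 with plain voom (190 and 71), 2595 with no filter (2215 and 380), 508 at a log2FC of at least 1, 149 without mice 4 and 5 (79 and 70) and 160 in DESeq2 without them. The 1180 genes with an unadjusted p-value below 0.05 became 624 with plain voom (391 higher), 2945 with no filter, 434 without mice 4 and 5 (221 higher) and 499 in DESeq2 without them. With quality weights they numbered 994 (535 higher), and with the 12 libraries alone 988 (717 higher). Leaving out 1 mouse gave 226 to 1014 genes at the relaxed threshold and 522 to 1556 below 0.05, and the lowest values, 226 (167 and 59) and 522 (308 higher), were those without mouse 5. The 33 list genes became 14 with quality weights and 8 without mice 4 and 5, and leaving out 1 mouse gave 13 (without mouse 5) to 41. The median SD of CR20-CTRL was 0.251 to 0.342 as 1 mouse at a time was left out and 0.247 without mice 4 and 5, and the share of genes with the same sign in the HFD mice was 72.3% to 81.1% in the alternatives tried. Scaling by library totals gave 837 higher and 32 lower genes, and the median log2FC of all genes was 0.07 in place of 0.02. Of 96 genes followed in the alternatives, 5 that passed the relaxed threshold changed direction: without mice 4 and 5, Lcn2 (-0.11), Slc38a4 (-0.98), Cx3cl1 (-0.25) and Inhba (-0.51), and with quality weights Slc38a4 (-0.28), Inhba (-0.37) and Myh11 (-0.037). As 1 mouse at a time was left out, Inhba ranged from -0.54 (without mouse 5) to 2.27. Without mice 4 and 5, 47 of the 96 fell from past the relaxed threshold to short of it and 9 passed it newly; without mouse 5, 27 and 3 did; plain voom gave 32 and 0.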

Other observations

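In the HFD mice the epithelial sum was also raised in 1 mouse of a restricted dam, CR20-HFD mouse 7, at 192 CPM against 26.4 to 50.4 CPM in the other 11. Its Foxj1 level was 21.4 CPM, and that of the other 11 was at most 1.02 CPM. CR20-HFD mouse 6 held other epididymal transcripts, with Crisp1 at 22.1 CPM and Adam7 at 4.31 CPM, and the other 11 HFD mice had 0 counts of both.

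CR20 mice 4 and 5 on the control diet and CR20 mice 6 and 7 on the HFD bear consecutive numbers, whose meaning the labels do not give. Ccl21a was at 42.7, 42.9, 18.97 and 74.2 CPM in these 4 mice and at most 1.90 CPM in the other 20 eWAT libraries. Igkc was at 3.67, 3.85, 1.82 and 2.86 CPM in them. Of the other 20 mice, FED-HFD mouse 11 had 2.15 CPM and the rest 17.3 CPM or more. Whether litter, dissection or handling lies behind this was not tested.

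The glial genes Gfap and Mobp were high together in CR20-CTRL mouse 4 (19.3 and 18.2 CPM) and FED-HFD mouse 13 (7.18 and 16.3 CPM), and in the other 22 mice they did not exceed 1.24 and 2.47 CPM.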
